A study of Mus musculus with 9 samples.

Results

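The genes described here encode the machinery that brings proteins into mitochondria, read in mouse gastrocnemius (a calf muscle) after a week of disuse. The rule took every gene whose symbol starts with Timm or Tomm followed by a number, together with Pam16, Dnlz, Grpel1, Grpel2, Pmpca, Pmpcb, Samm50, Hspd1 and Hspe1, and found 35 of the 55487 genes in the tables. Of these, 34 are protein-coding, and Tomm6os, which met the rule by its name, is a noncoding RNA antisense to Tomm6. The samples came from male C57BL/6 mice, 8 weeks old by the series text, in 3 groups of 3. By the methods that was their age at purchase, and they were housed for some weeks more before the experiment. Dis was muscle of the leg held still for 7 days in a thermoplastic bandage, Con was the free opposite leg of the immobilized mice, and NC was muscle of mice that were never immobilized. The labels name no genetic alteration in any group. Con and Dis came from the same animals, so a response of the whole animal reaches both, and the labels do not say which Con and Dis samples shared a mouse. The text of the study speaks of several mice, but no label ties a sample to its mouse, so the p-values may measure only the spread between samples. The labels name gastrocnemius throughout, whereas in the methods the RNA was taken from the tibialis anterior, and the methods and the series text differ on which leg, left or right, was bound.

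Most mitochondrial proteins are made in the cytosol and enter through the TOM complex of the outer membrane, in which receptors such as Tomm20 and Tomm70a bind precursors and Tomm40 forms the channel. From there the SAM complex builds barrel proteins into the outer membrane, small TIM chaperones carry hydrophobic precursors across the intermembrane space, and the TIM22 complex inserts carriers such as the ADP/ATP exchanger into the inner membrane. Precursors with a cleavable presequence pass the TIM23 channel, are pulled into the matrix by an Hsp70 motor, are trimmed by the processing peptidase and fold in the Hspd1-Hspe1 chaperonin. Skeletal muscle is rich in mitochondria, and most proteins of its respiratory chain are made in the cytosol and imported.

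Promoter sequence is shown for 4 genes: Hspe1, whose start region is shared with Hspd1 on the opposite strand, and the genes called in at least 1 comparison with Dis for which the table used here held an entry. Windows run from 250 bases before to 50 after the start, are taken from RefSeq on GRCm38.p6, and are read 5′ to 3′ on the gene's own strand, with capitals marking a motif match.
Hspe1, chr1:55087898-55088197, plus strand: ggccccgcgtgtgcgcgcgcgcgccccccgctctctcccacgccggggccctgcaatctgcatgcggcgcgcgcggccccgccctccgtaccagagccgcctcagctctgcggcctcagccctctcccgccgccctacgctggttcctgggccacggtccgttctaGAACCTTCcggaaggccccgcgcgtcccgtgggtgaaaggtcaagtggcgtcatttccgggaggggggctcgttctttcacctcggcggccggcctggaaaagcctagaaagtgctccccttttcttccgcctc
Timm8a1, chrX:134541621-134541920, minus strand: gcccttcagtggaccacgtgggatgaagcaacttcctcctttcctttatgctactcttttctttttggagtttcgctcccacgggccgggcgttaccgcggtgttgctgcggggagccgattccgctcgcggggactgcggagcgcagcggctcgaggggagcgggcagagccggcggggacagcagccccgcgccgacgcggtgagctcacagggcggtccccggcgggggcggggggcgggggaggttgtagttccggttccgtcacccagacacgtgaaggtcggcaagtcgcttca
Timm17b, chrX:7899086-7899385, plus strand: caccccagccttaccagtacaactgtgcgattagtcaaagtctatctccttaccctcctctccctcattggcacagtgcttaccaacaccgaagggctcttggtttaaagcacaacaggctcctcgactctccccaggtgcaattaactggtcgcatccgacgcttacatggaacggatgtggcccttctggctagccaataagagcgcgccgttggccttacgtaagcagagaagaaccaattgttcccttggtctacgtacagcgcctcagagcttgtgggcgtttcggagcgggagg
Tomm70a, chr16:57121464-57121763, plus strand: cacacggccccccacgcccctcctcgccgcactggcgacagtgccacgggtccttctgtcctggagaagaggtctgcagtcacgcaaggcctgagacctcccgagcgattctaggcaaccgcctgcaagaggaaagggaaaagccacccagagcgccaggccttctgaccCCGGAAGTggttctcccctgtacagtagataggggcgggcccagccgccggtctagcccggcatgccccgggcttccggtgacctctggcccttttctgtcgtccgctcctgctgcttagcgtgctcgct
The table held 30 of the 34 protein-coding members and lacked Tomm40l, Tomm7, Timm21 and Grpel2. Both strands were searched for 4 motifs. The NRF1 core GCGCANGCG was present in the windows of 5 of the 30 genes (Hspd1, Pam16, Timm13, Timm8b and Tomm20) and of 7.03% of all 27025 genes in the table. The ETS site ACTTCCGG, bound by GABPA among others, was present in 7 of the 30 (Pmpcb, Timm10, Timm10b, Timm23, Timm29, Timm8a2 and Tomm70a) and in 4.31% of all genes. The ERR site TCAAGGTCA was found only in Timm8b among the 30 and in 0.466% of all genes. The heat shock element core GAANNTTC, which reads alike on both strands, was found in Hspd1, Hspe1 and Timm9 and in 9.04% of all genes. In the windows printed, the capitals of Hspe1 are a heat shock core, those of Tomm70a are an ETS site on the opposite strand, no 2 matches overlap, and Timm8a1 and Timm17b hold none of the 4 motifs. A match of letters is a description and was not tested for binding.

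Values are TPM, the authors' estimate of relative transcript number, corrected for transcript length and scaled to 1 total per sample, so levels can be compared between genes. TPM keeps no read totals, so the depth of each sample is unknown and counting error could not be computed. Muscle fibre markers (6 genes) summed to between 111977 and 134916 TPM, and the 3 skin markers to no more than 1.38 TPM, with Krt5 and Krt14 at 0 outside Dis sample 2. That sample stood apart, with a score of 68.1 on the first principal component (40.2% of the variance) against 12.7 and 19.6 for the other Dis samples and -21.5 to -7.95 for the controls. Its 5 macrophage markers summed to 267 TPM against 35.1 to 86.1 TPM in the other samples, its 5 fibroblast markers to 725 TPM against 189 to 496 TPM, and its share of TPM from the mitochondrial chromosome was the lowest (13.8%, range 13.8 to 23.4%). The 4 Schwann cell markers summed to 148 to 369 TPM in Dis, 60.4 to 153 TPM in Con and 98.6 to 167 TPM in NC. Of the 4, 2 were called higher against Con, where 14.1% of all genes were. Without Dis sample 2 the number was 3, beside 1897 of all 16140 genes. The number was 0 against NC and under the median-ratio scaling described below. The 8 slow-fibre sarcomere genes summed to 1187 to 3780 TPM in Dis, 3125 to 9707 TPM in Con and 4118 to 8783 TPM in NC. Of the 8, 3 were called lower against Con (median difference -1.41), where 3.08% of all genes were. Without Dis sample 2, 3 of the 5 fibroblast markers and 1 of the 5 macrophage markers were called lower against Con, beside 574 of all 16140 genes. With all samples the number was 0 for both lists. Counts of called import genes and of the mitochondrial lists below are given without Dis sample 2 where they differ. The part of these cell and fibre types in the results was not tested. In bulk muscle, fewer cells of a type and less RNA per cell cannot be told apart. The median of all 16140 genes tested lay 0.20 higher in Dis than in Con and 0.21 higher than in NC on the log2 scale, and median-ratio scaling, which sets the typical gene equal between samples, reduced both to 0.01. Each direction below is therefore also given under that scaling where it matters.

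Under TPM as deposited, most import genes lay close to their control level in the immobilized leg. A call means an adjusted p below 0.05 in limma on log2(TPM + 0.5), fitted over the 3 groups with Benjamini-Hochberg adjustment over all genes tested, and the differences given are differences of mean log2 values. Of the 35 members, 33 were tested: Timm8a2 was detected in a single sample (0.0877 TPM in Con sample 1) and Tomm20l was at 0 in all 9. Against Con, 1 member was higher in Dis (Timm17b), 2 were lower (Tomm40l and Timm8a1) and 30 were not called. That is 9.09% of the members, where 17.2% of all genes were called (14.1% higher and 3.08% lower). The member differences ran from -0.66 to 0.39 with a median of -0.02, and 26 of 33 were smaller than 0.3. Against NC, Timm17b and Tomm70a were higher and Tomm40l was lower, again 9.09% of the members beside 16.6% of all genes (13.6% higher and 2.99% lower), with a median difference of 0.08. Without Dis sample 2, 4 members were called against Con (Timm17b higher, and Tomm40l, Tomm5 and Timm10 lower) and 1 against NC (Tomm40l). Of all 16140 genes, 1897 were then called higher and 574 lower against Con, and 1738 higher and 444 lower against NC. Under median-ratio scaling 29 of the 33 lay below 0 against Con (median -0.25), and 6 were called lower, beside 4.67% of all genes. Against NC 27 lay below 0 (median -0.16), and 5 were called lower, beside 5.52% of all genes. Under TPM as deposited, the 95% interval of the difference from Con lay wholly within 1.5-fold in either direction for 27 members. The interval of the difference from NC did so for 26. These intervals limit how large a difference could have been missed, and do not show that the levels were equal. The summed level of all 35 genes was 1408, 1417 and 1406 TPM in the Con samples, 1404, 1464 and 1313 TPM in Dis, and 1280, 1355 and 1403 TPM in NC, so the groups overlapped.

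**Figure D1:**
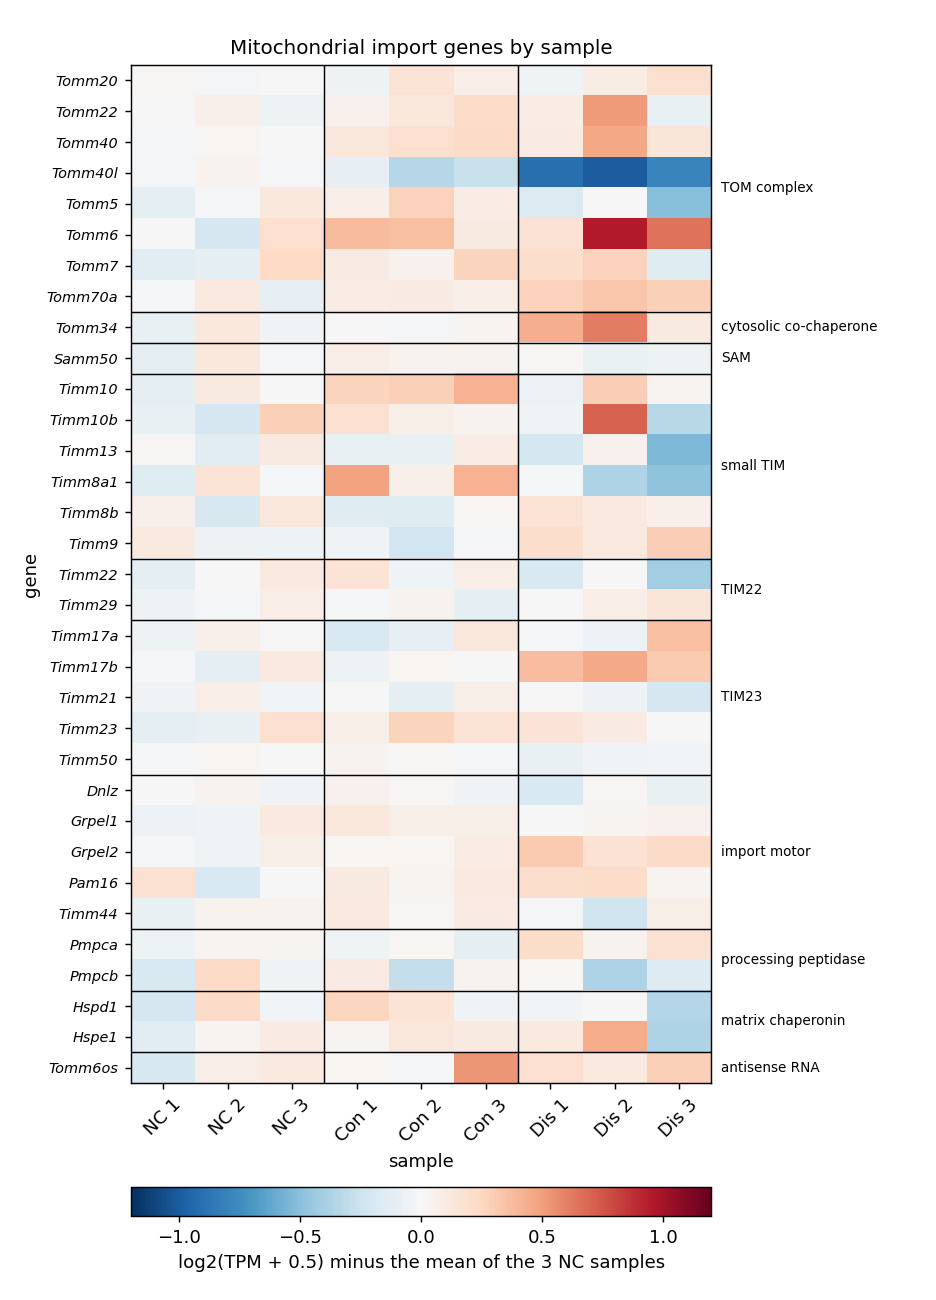
Level of the 33 tested import genes (rows, grouped by role) in each of the 9 samples (columns), as log2(TPM + 0.5) minus the mean of the 3 NC samples, where blue is lower and red is higher. Tomm40l is the only row that is dark blue in all 3 Dis samples, and Tomm6 and Timm10b are reddest in Dis sample 2.

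**Figure D2:**
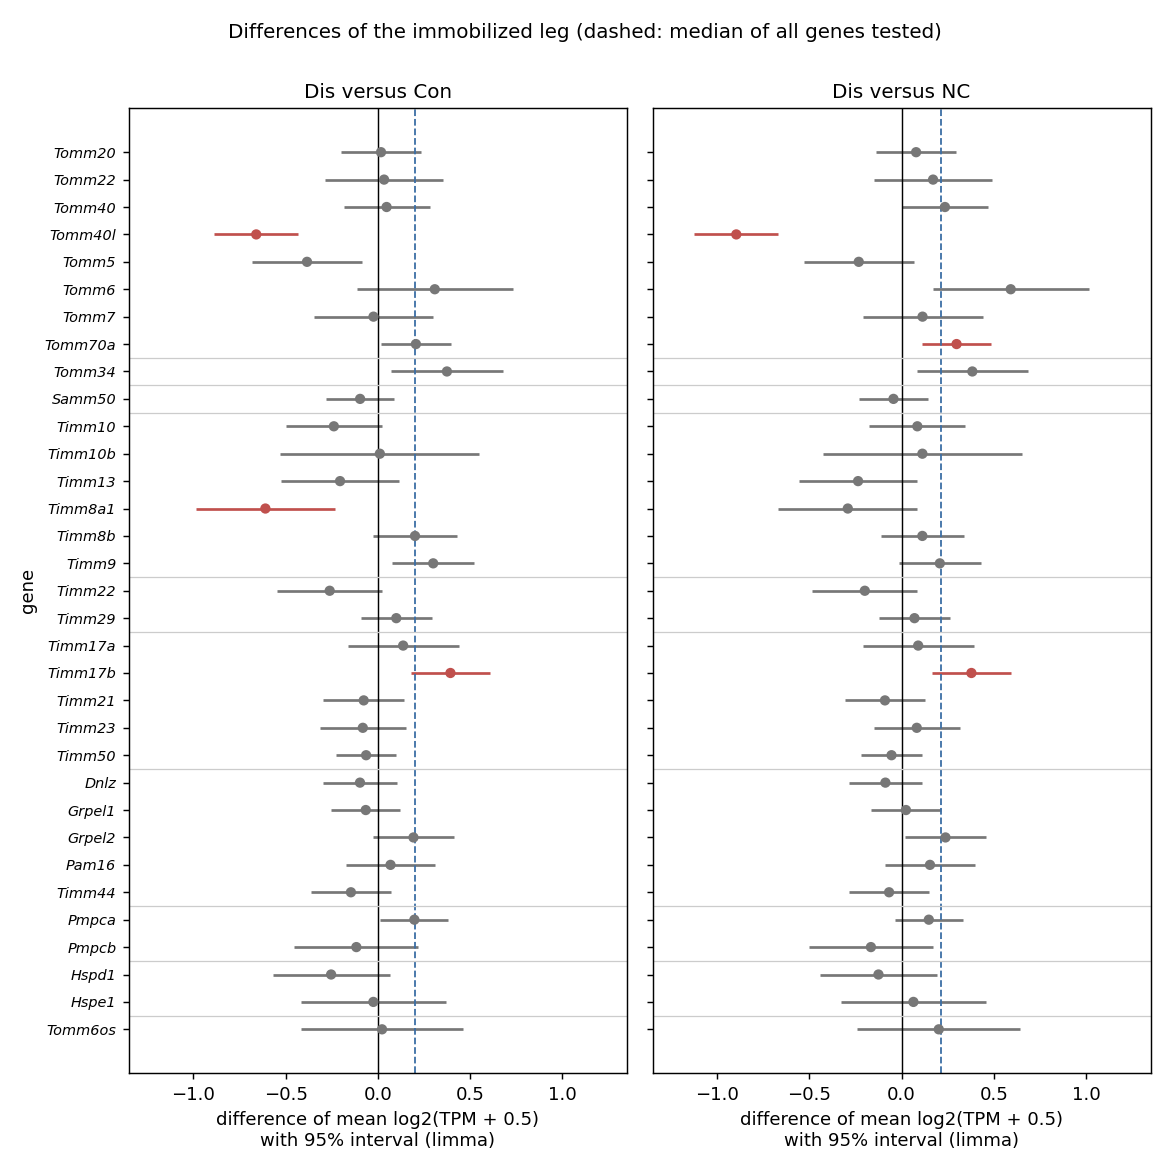
Difference in mean log2(TPM + 0.5) between Dis and Con (left) and Dis and NC (right) for the 33 tested genes, with 95% intervals from limma. Red points were called, and the dashed line is the median of all genes tested (0.20 and 0.21). Tomm40l lies farthest to the left in both panels, at -0.66 and -0.90.

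Across the samples, Timm23 (channel subunit of TIM23) had the highest mean level of the members, 214 TPM, followed by Hspd1 (134 TPM), Timm8b (102 TPM), Pmpca (95.03 TPM) and Hspe1 (75.96 TPM). Members varied little over the 9 samples, and for 28 of the 33 the highest sample was less than 2 times the lowest. The median coefficient of variation within a group was 6.04% in Con, 7.97% in NC and 10.8% in Dis. Dis sample 2 was the highest of all samples for 10 members and Dis sample 3 the lowest for 10.

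Among the TOM genes, the clearest difference was in Tomm40l, a second form of the channel protein encoded on chromosome 1 (171216011 to 171222514, minus strand, GRCm38). Its levels were 8.58, 8.02 and 9.32 TPM in Dis, 15.3, 12.9 and 13.6 TPM in Con, and 16.2, 17.0 and 16.3 TPM in NC. Every Dis sample lay below every control sample, and every Con sample lay below every NC sample. Tomm40l fell by 0.66 on the log2 scale against Con (SE 0.10, adjusted p = 0.00617), which is 1.58-fold lower, and by 0.90 against NC (adjusted p = 0.00307), which is 1.86-fold lower. Without Dis sample 2 the difference from Con was -0.61 (adjusted p = 0.00933), and under median-ratio scaling it was -0.88 (adjusted p = 0.00478). Tomm40l was called lower in Dis under each of 12 other settings and after leaving out any 1 of the 9 samples, in both comparisons. The difference between Con and NC (-0.24, adjusted p = 0.786) was not called. No other gene shares a stretch of 75 bases with Tomm40l, and Nr1i3, which overlaps it on the opposite strand, did not exceed 0.0569 TPM.

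Tomm40, the main channel protein, was the more abundant of the pair and did not show this pattern. It stood at 30.9, 39.7 and 31.9 TPM in Dis, 31.7, 33.1 and 33.7 TPM in Con, and 28.3, 29.2 and 28.8 TPM in NC. Dis overlapped Con and lay above NC, and neither difference was called (0.05 against Con, adjusted p = 0.777, and 0.24 against NC, adjusted p = 0.143). The Tomm40 difference from NC ran from -0.05 to 0.24 over the 12 other settings, rescaling among them. Tomm70a, the receptor that docks precursors delivered by cytosolic Hsp70 and Hsp90, gave 26.6, 27.6 and 26.8 TPM in Dis, 23.3, 23.5 and 23.2 TPM in Con, and 21.6, 23.7 and 20.4 TPM in NC. All 3 Dis samples lay above the 6 controls. The rise passed against NC (0.30, SE 0.08, adjusted p = 0.0407) and missed the threshold against Con (0.21, adjusted p = 0.119). The call against NC was lost without any single sample other than NC sample 2 (adjusted p up to 0.138, and 0.28 with adjusted p = 0.0689 without Dis sample 2), and under median-ratio scaling the differences were 0.06 against NC and -0.02 against Con. A fit to Dis and NC alone did not call Tomm70a either, nor did a fit with a block for replicate number.

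The small subunits that stabilise the TOM complex differed in how their samples lay. Tomm5 was measured at 38.8, 43.7 and 30.6 TPM in Dis, 46.5, 53.3 and 46.8 TPM in Con, and 40.8, 43.2 and 47.9 TPM in NC. Dis lay below Con but overlapped NC, and the difference from Con was not called (-0.38, adjusted p = 0.0756). Without Dis sample 2 Tomm5 was called lower against Con (-0.50, adjusted p = 0.0302), and under median-ratio scaling it was called lower in both comparisons (-0.61 against Con, adjusted p = 0.0207, and -0.47 against NC, adjusted p = 0.0459). Tomm6 was the most scattered, with 46.0, 79.4 and 64.5 TPM in Dis, 53.3, 52.5 and 44.0 TPM in Con, and 40.8, 35.5 and 47.0 TPM in NC. Dis sample 2 held the highest Tomm6 value, the groups overlapped, and neither difference was called (0.31 against Con, adjusted p = 0.281, and 0.59 against NC, adjusted p = 0.0599), although both passed without Dis sample 1, the lowest of its group (adjusted p = 0.0484 and 0.0123). Of the 75-base stretches of Tomm6, 65.5% also occur in Gm21981, so the split of reads between the genes is uncertain. The 2 genes together gave 61.8, 90.8 and 73.1 TPM in Dis. The sums were 60.2, 64.2 and 56.6 TPM in Con and 52.4, 46.6 and 57.7 TPM in NC. Summed, Dis overlapped Con and lay above NC, which was not tested. Tomm7 and the receptors Tomm20 and Tomm22 gave differences from Con between -0.02 and 0.03, and all 3 overlapped both control groups. Tomm6os stayed at 0.130 to 0.538 TPM in every sample, and its values cannot be told from those of Tomm6 on the other strand unless the counting used strand. The library kit was strand-specific by the methods, and the strand setting of the counting is not given in the sources used here.

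**Figure D3:**
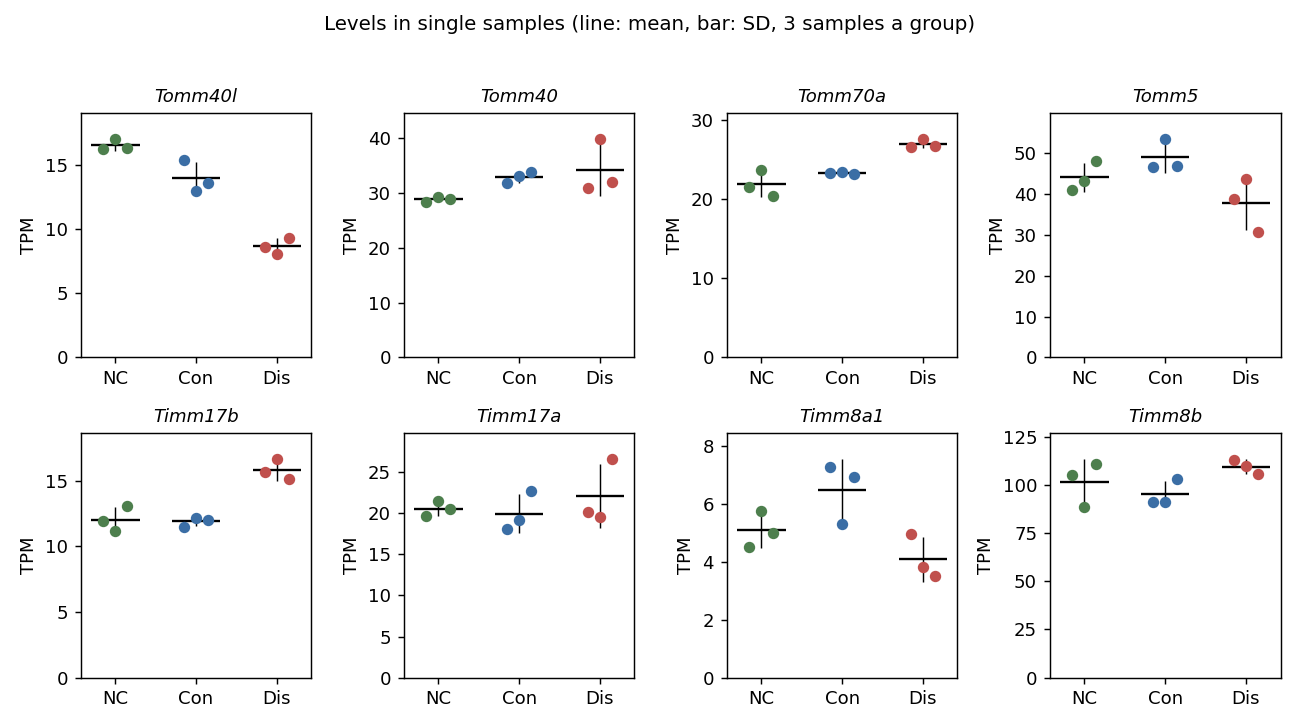
TPM in single samples for 8 import genes, by group, with the mean (line) and SD (bar) of 3 samples, on axes that start at 0. Tomm40l (8.02 to 9.32 TPM in Dis) and Timm17b (15.1 to 16.6 TPM in Dis) do not overlap either control group, whereas their relatives Tomm40 and Timm17a overlap Con.

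Tomm34, a cytosolic co-chaperone that binds Hsp70 and Hsp90 and keeps precursors unfolded, stood at 15.7, 17.9 and 12.4 TPM in Dis, 11.6, 11.4 and 11.8 TPM in Con, and 10.8, 12.6 and 11.2 TPM in NC. Dis sample 3 was close to the controls and overlapped NC, and neither difference was called (0.37, adjusted p = 0.0834, and 0.38, adjusted p = 0.0786). Without Dis sample 3 both passed (adjusted p = 0.0241 against Con and 0.0201 against NC), and without Dis sample 2 they were 0.26 and 0.27 and did not pass. Samm50, the core of the SAM complex, gave 72.6, 68.0 and 68.7 TPM in Dis, 75.9, 73.8 and 74.0 TPM in Con, and 66.8, 78.7 and 70.6 TPM in NC. It differed from Con by -0.10 (95% interval -0.28 to 0.09) and was not called.

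The small TIM chaperones did not move as a group. Of the 6 tested, 1 was called lower against Con (Timm8a1), where 3.08% of all genes were, and 5 were not called. Against NC none of the 6 passed. None had an unadjusted p below 0.05 against NC in limma, the only tool run, where 34.1% of all genes did. Timm8a1, which escorts Timm23 and other inner-membrane proteins with Timm13, was the rarest of them. Its levels were 4.96, 3.81 and 3.50 TPM in Dis, 7.27, 5.30 and 6.92 TPM in Con, and 4.53, 5.75 and 5.0 TPM in NC. Dis lay below Con, whereas NC overlapped both. Timm8a1 fell by 0.61 against Con (SE 0.17, adjusted p = 0.0376, 1.53-fold lower), and the difference from NC was -0.29 (adjusted p = 0.248). The call against Con was lost without Con sample 1 or 3, Dis sample 2 or 3, or any NC sample (adjusted p up to 0.13, and -0.57 with adjusted p = 0.0673 without Dis sample 2). It was also lost in a fit to Dis and Con alone (adjusted p = 0.089) and in a fit with a block for replicate number. The call held under median-ratio scaling (-0.81, adjusted p = 0.026). Of its 75-base stretches, 39.9% also occur in Gm9797, which was read at 3.56 to 5.99 TPM. The 2 genes together gave 8.42 ± 0.206 TPM in Dis, 11.9 ± 1.19 TPM in Con and 9.11 ± 0.941 TPM in NC (SD, n = 3), and so kept Con as the highest group.

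Timm8b, the abundant relative of Timm8a1, gave 113, 110 and 105 TPM in Dis, 91.3, 91.3 and 103 TPM in Con, and 105, 88.6 and 111 TPM in NC. Its Dis samples lay above Con and overlapped NC, and the difference from Con (0.20, adjusted p = 0.194) was not called. That difference ran from -0.03 to 0.20 over the 12 other settings, rescaling among them. Timm9, which forms the carrier chaperone with Timm10, showed 27.7, 26.1 and 29.5 TPM in Dis, 23.3, 20.4 and 23.8 TPM in Con, and 26.1, 23.0 and 22.9 TPM in NC. Its difference from Con (0.30, adjusted p = 0.0665) missed the threshold and ran from 0.08 to 0.31 over the same 12 settings. Timm10 itself gave 18.7, 24.3 and 20.1 TPM in Dis, 23.7, 24.1 and 26.5 TPM in Con, and 18.2, 21.3 and 19.6 TPM in NC. For Timm10 every Con sample lay above every NC sample, a difference that was not called (0.32, adjusted p = 0.638), and Dis overlapped both. Its difference from Con (-0.24, adjusted p = 0.181) was called without Dis sample 2 (-0.35, adjusted p = 0.0493) and under median-ratio scaling (-0.46, adjusted p = 0.0169). Timm13 and Timm10b overlapped both control groups, and Timm10b reached 19.5 TPM in Dis sample 2 against 9.20 to 14.4 TPM in the other samples.

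At the inner membrane, Timm17b was the only subunit called. Timm17 proteins are structural subunits of the TIM23 channel, and Timm17b is encoded on chromosome X (7899357 to 7908351, plus strand). Its levels were 15.6, 16.6 and 15.1 TPM in Dis, 11.5, 12.2 and 12.0 TPM in Con, and 11.9, 11.1 and 13.1 TPM in NC. All 3 Dis samples lay above all 6 controls. Timm17b rose by 0.39 against Con (SE 0.10, adjusted p = 0.0251, 1.31-fold) and by 0.38 against NC (adjusted p = 0.0277). The call against Con was lost without any 1 of the Con samples (adjusted p up to 0.0935), and that against NC without Dis sample 2, NC sample 1 or NC sample 2 (adjusted p up to 0.0941). Neither call held when only the 2 groups compared were fitted, or in a fit with a block for replicate number. Without Dis sample 2 the differences were 0.36 from Con (adjusted p = 0.0435) and 0.34 from NC (adjusted p = 0.053). Under median-ratio scaling the differences were 0.17 (adjusted p = 0.318) and 0.14 (adjusted p = 0.398). The rise was thus called relative to total TPM, and relative to the typical gene it was smaller and not called. Its relative Timm17a gave 20.2, 19.6 and 26.6 TPM in Dis, 18.05, 19.2 and 22.7 TPM in Con, and 19.7, 21.4 and 20.5 TPM in NC. The groups overlapped (0.14 against Con, adjusted p = 0.509).

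Timm23 stood at 225, 216 and 200 TPM in Dis, 211, 242 and 226 TPM in Con, and 188, 190 and 230 TPM in NC, without a call. The gene shares 52.1% of its 75-base stretches with 7 other genes, led by Gm10273, which together were read at 114 to 239 TPM, so its own level is uncertain. With those genes added the level was 435 ± 3.77 TPM in Dis, 420 ± 40.6 TPM in Con and 363 ± 17.3 TPM in NC (SD, n = 3). The receptor subunit Timm50 had the narrowest interval of the members, at 32.4, 33.5 and 33.7 TPM in Dis against 35.4, 34.8 and 33.8 TPM in Con (-0.06, 95% interval -0.23 to 0.10). Timm21 overlapped both control groups. In the TIM22 complex, the channel Timm22 gave 12.2, 13.9 and 10.3 TPM in Dis, 15.6, 13.4 and 14.7 TPM in Con, and 12.8, 13.9 and 15.1 TPM in NC. Its difference from Con (-0.26, adjusted p = 0.18) was called under median-ratio scaling (-0.48, adjusted p = 0.0353) and quantile normalization, while the accessory subunit Timm29 (0.10 against Con) was not called.

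None of the 5 import motor genes was called in either comparison by limma, with 0 at an unadjusted p below 0.05 against Con and 1 against NC. Of all genes, 33.7% reached that unadjusted level in limma against Con and 34.1% against NC. Grpel2 and Grpel1 encode the nucleotide exchange factors of the motor Hsp70. Grpel2 gave 8.75, 7.91 and 8.22 TPM in Dis, 7.05, 7.08 and 7.44 TPM in Con, and 6.86, 6.71 and 7.31 TPM in NC. All 3 Dis samples lay above the 6 controls, with differences of 0.19 (adjusted p = 0.198) and 0.24 (adjusted p = 0.121). Over the 12 other settings, rescaling among them, the Grpel2 differences ran from -0.03 to 0.21 against Con and from -0.005 to 0.26 against NC. Grpel1 showed 23.6, 24.2 and 24.5 TPM in Dis, 26.0, 24.9 and 24.8 TPM in Con, and 22.5, 23.0 and 25.6 TPM in NC. Dnlz, a chaperone that keeps the motor Hsp70 soluble, differed from Con by -0.10 and from NC by -0.09. After median-ratio scaling Dnlz was called lower in both (-0.32 against each, adjusted p = 0.0476 and 0.041). Timm44, which tethers the motor to the channel, and Pam16, which restrains its J-protein partner, differed from Con by -0.15 and 0.07.

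The processing peptidase cuts presequences with 2 subunits, and neither was called. Pmpca, the subunit that recognises the presequence, gave 108, 95.2 and 105 TPM in Dis, 89.1, 94.0 and 85.5 TPM in Con, and 89.0, 94.5 and 94.6 TPM in NC. Every Dis sample lay above every control, by 0.20 (adjusted p = 0.123) and 0.15 (adjusted p = 0.231) on average. Over the 12 other settings, rescaling among them, the Pmpca differences ran from -0.03 to 0.24 against Con and from -0.09 to 0.19 against NC. Pmpcb, the catalytic subunit, gave 65.0, 49.5 and 57.5 TPM in Dis, 68.4, 52.4 and 66.0 TPM in Con, and 56.2, 75.4 and 61.9 TPM in NC, with full overlap. Hspd1, the barrel of the chaperonin, stood at 130, 134 and 104 TPM in Dis, 160, 149 and 129 TPM in Con, and 116, 157 and 130 TPM in NC. Hspe1, its lid, stood at 78.9, 98.9 and 55.9 TPM in Dis, 74.0, 79.5 and 78.1 TPM in Con, and 66.3, 74.4 and 77.5 TPM in NC. Both overlapped Con and NC, with differences from Con of -0.25 (adjusted p = 0.239) and -0.02 (adjusted p = 0.938), and both were lowest in Dis sample 3. The genes overlap by 112 bases on opposite strands, and 29.6% of the Hspd1 stretches and 11.9% of the Hspe1 stretches also occur in other genes.

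Groups that do not overlap were counted apart from the test. Against Con, 13 members did not overlap (39.4%, beside 36.7% of all genes), 7 of them higher in Dis (21.2%, where 30.2% of all genes were) and 6 lower (18.2%, where 6.43% were). Against NC the share was 24.2% of members and 38.0% of all genes. Of the members, 6 lay wholly higher (18.2%, beside 31.3% of all genes) and 2 wholly lower, Tomm40l and Timm50 (6.06%, beside 6.71%). Between Con and NC limma called 0 of 33 members and 0.00620% of all genes. There 2 members had an unadjusted p below 0.05 in limma (Timm10 and Tomm40l), and so did 6.25% of all genes. In that comparison 3 members did not overlap (9.09%, beside 17.6% of all genes): Timm10 and Tomm40 lay higher in Con (6.06%, beside 9.54% of all genes), and Tomm40l lay lower (3.03%, beside 8.11%).

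Ratios of 2 genes within a sample, each taken after 0.5 TPM was added to both genes, were compared for 6 pairs. The Tomm40 to Tomm40l ratio was above 1 in every sample, at 3.46, 4.72 and 3.30 times in Dis, 2.04, 2.504 and 2.43 times in Con, and 1.72, 1.70 and 1.74 times in NC. All 3 Dis ratios lay above the 6 control ratios. The mean log2 ratio was 1.92 in Dis, 1.21 in Con and 0.79 in NC, a difference of 0.71 from Con and 1.13 from NC. With 3 samples against 3, the exact two-sided permutation test cannot go below p = 0.1, which it gave in both. Against the 6 controls together the difference was 0.92 (exact two-sided permutation test, p = 0.0119, the smallest it can give), with an adjusted p of 0.107 over the 18 tests run. Each test against the 6 controls treats them as alike and independent of Dis. Con and Dis came from the same animals, however, and for this pair every Con ratio lay above every NC ratio. Grpel1 to Grpel2 also separated the groups in the other direction, at 2.60, 2.93 and 2.87 times in Dis against 3.19 to 3.51 times in Con and 3.12 to 3.35 times in NC. The difference from the 6 controls was -0.24 (exact permutation p = 0.0119, adjusted p = 0.107). Timm8a1 to Timm8b lay lower in Dis than in Con (-0.81, exact permutation p = 0.1) and overlapped NC (-0.40, exact permutation p = 0.2). Timm17a to Timm17b (-0.27 against the 6 controls, exact permutation p = 0.0833), Timm10 to Timm10b (-0.14, p = 0.512 in the same test) and Hspd1 to Hspe1 (-0.21, p = 0.167 in the same exact test) overlapped. No ratio passed at an adjusted p below 0.05.

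Import genes were set beside other mitochondrial lists under both scalings. The complex I list was taken by symbol (Nduf, then a, b, c, s or v and a number), with Ndufa4, Ndufb4c and Ndufs6b among its genes. Whether each gene encodes a subunit of the complex was not checked. Under TPM as deposited the median difference between Dis and Con was -0.02 for the 33 import genes and 0.12 for 20 other genes of the import pathway. It was -0.07 for 78 mitochondrial ribosomal proteins, -0.24 for 7 genes of the MICOS complex and -0.25 for 38 genes of the complex I list, where the median of all genes was 0.20. Under median-ratio scaling the same medians were -0.25, -0.10, -0.30, -0.46 and -0.48, with all genes at 0.01. Without Dis sample 2 they were -0.07, 0.08, -0.10, -0.28 and -0.21, with all genes at 0.14, so complex I then lay above MICOS. Of the complex I genes, 13 of 38 were called lower and 0 higher against Con, and 18 lower and 0 higher against NC, where 3.08% and 2.99% of all genes were called lower. The complex I genes called lower numbered 10 and 9 without Dis sample 2, beside 574 and 444 of all 16140 genes, and under median-ratio scaling 21 and 25. Under TPM as deposited, 17 of the 33 import genes lay below 0 against Con and 12 against NC. Median-ratio scaling put 29 below 0 against Con and 27 against NC. It called 6 lower against Con (Tomm40l, Timm8a1, Tomm5, Timm22, Timm10 and Dnlz) and 5 against NC (Tomm40l, Timm13, Tomm5, Timm22 and Dnlz), with none higher. Of all genes, that scaling called 4.67% lower and 2.67% higher against Con, and 5.52% lower and 3.51% higher against NC. Tomm40l was called lower under both scalings in both comparisons, and Timm8a1 under both scalings against Con.

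**Figure D4:**
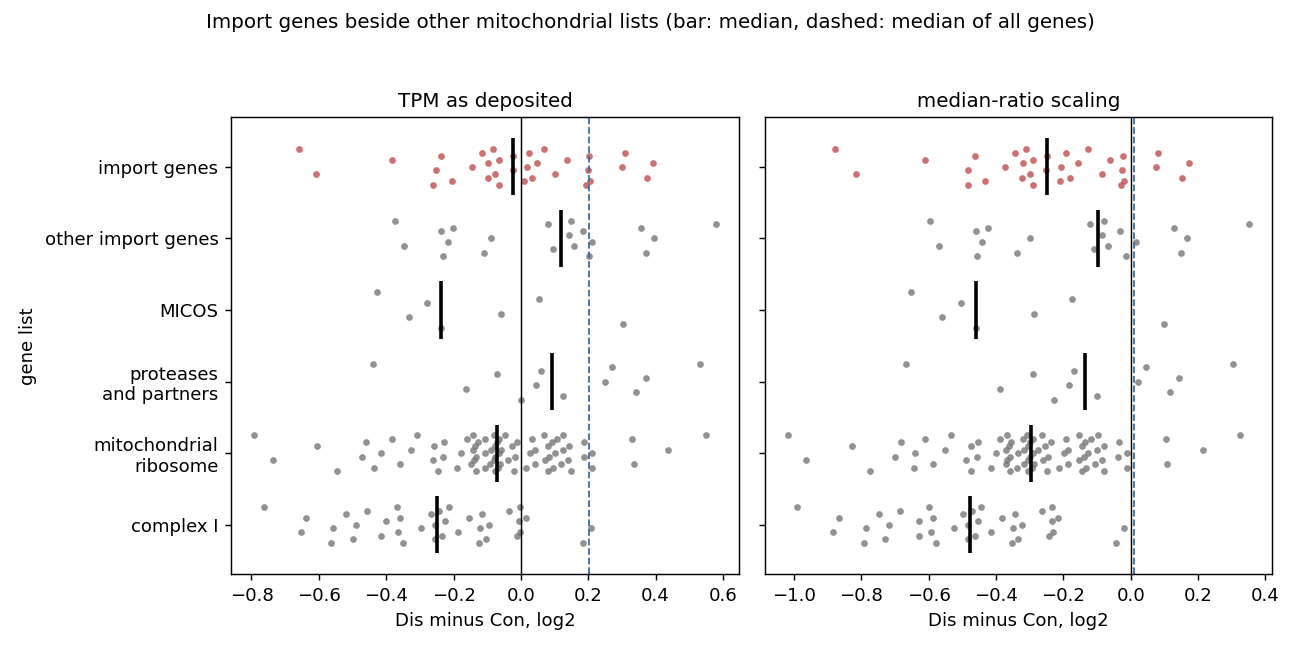
Difference in mean log2 level between Dis and Con for single genes (points) of the import list and 5 other mitochondrial lists, under TPM as deposited (left) and median-ratio scaling (right). The black bar is the median of a list and the dashed line that of all genes tested. The import median is -0.02 on the left and -0.25 on the right, and that of complex I is lower in both (-0.25 and -0.48).

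Among the 20 other genes of the import pathway, 3 were called higher and 0 lower against Con, beside 14.1% of all genes called higher. Gfer, the sulfhydryl oxidase that drives disulfide relay import, was at 41.4, 57.0 and 40.2 TPM in Dis, 29.4, 34.0 and 28.04 TPM in Con, and 29.7, 25.6 and 31.6 TPM in NC, a rise of 0.58 against Con (adjusted p = 0.0295). Pitrm1, which degrades cleaved presequences, gave 25.9, 26.9 and 26.8 TPM in Dis and 20.0, 20.4 and 20.7 TPM in Con (0.37, adjusted p = 0.0286), and Mtch2, an outer-membrane insertase, rose by 0.36 (adjusted p = 0.0275). Under median-ratio scaling none of the 3 was called (adjusted p = 0.136, 0.396 and 0.461). Hspa9, the motor Hsp70 itself, stood at 229, 236 and 243 TPM in Dis, 277, 287 and 268 TPM in Con, and 254, 300 and 244 TPM in NC, and was called lower against Con under median-ratio scaling (adjusted p = 0.032) but not under TPM as deposited (-0.23, adjusted p = 0.116).

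The cytosolic chaperones that hand precursors to TOM moved in both directions, 4 of 14 higher and 4 lower against Con, where 14.1% of all genes were called higher and 3.08% lower. Under median-ratio scaling 2 were called higher and 7 lower, beside 2.67% and 4.67% of all genes. Without Dis sample 2 the counts were 4 and 5, beside 1897 and 574 of all 16140 genes. Hspa8, the constitutive Hsp70, fell by 0.83 (adjusted p = 0.00561) from 822, 799 and 812 TPM in Con to 479, 518 and 381 TPM in Dis, with NC at 637, 762 and 681 TPM. The heat-inducible pair Hspa1a and Hspa1b stood at 3.73, 4.41 and 3.03 TPM and 2.70, 3.84 and 3.21 TPM in Dis, against 13.6 to 22.9 TPM and 13.7 to 19.5 TPM in Con (-2.12 and -2.17, adjusted p = 0.00352 and 0.00248). The NC samples lay between, at 4.88 to 9.36 TPM and 4.42 to 7.44 TPM, and the pair are near-identical copies whose split is uncertain. Hspd1 and Hspe1, whose promoter windows hold the heat shock core printed above, were not called. Ubqln2, which binds hydrophobic precursors, rose by 0.71 (adjusted p = 0.00503).

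Of 11 tested regulators of mitochondrial genes, 1 was higher and 2 were lower against Con, where 14.1% of all genes were called higher and 3.08% lower. Atf5, a transcription factor of the mitochondrial unfolded protein response, gave 35.0, 42.6 and 42.8 TPM in Dis, 62.9, 63.1 and 72.1 TPM in Con, and 71.1, 78.9 and 68.0 TPM in NC, a fall of 0.71 against Con (adjusted p = 0.00599) and 0.85 against NC (adjusted p = 0.00355). Esrra, the receptor that binds the ERR site, fell by 0.60 (adjusted p = 0.0112), with 58.8, 49.4 and 66.5 TPM in Dis and 82.1 to 94.1 TPM in Con. Nrf1, the factor of the NRF1 site, rose by 0.43 (adjusted p = 0.0374), which was lost without Dis sample 2 and under median-ratio scaling (0.21, adjusted p = 0.259), while the falls of Atf5 and Esrra held under it.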

How the data were processed

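RNA of 9 samples was sequenced by the study (3 each of Dis, Con and NC). Per the labels, reads were demultiplexed with bcl2fastq 2.20 and aligned with HISAT2, and the methods name StringTie without saying how the TPM were made. The authors deposited TPM, 1 table for each sample, with totals equal between samples. The genome build is not given in the sources used here, and all 35 members lie at the coordinates of GENCODE M21 (GRCm38), as do 54864 of the genes. The value 0.0001 TPM was read as 0.

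A gene was tested if 3 or more of the 9 samples reached 0.3 TPM (16140 genes), using limma 3.58.1 in R 4.3.3 on log2(TPM + 0.5) with a mean trend, the 3 groups in 1 fit and no replicate term. Benjamini-Hochberg adjustment ran over all genes and the threshold was 0.05. The added 0.5 TPM makes differences of low genes smaller. A count test was not run, since the values are not counts. The fit was tested on simulated data. Ratios of 6 gene pairs, with 0.5 TPM added to each gene, were compared with exact permutation tests over samples in Python 3.11.15 (numpy 2.4.6, scipy 1.17.1, pandas 2.3.3), and figures were drawn with matplotlib 3.10.9. Means are given with the SD and differences with the SE of limma. Shared sequence was counted as stretches of 75 bases of the GENCODE transcripts.

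The members and lists were chosen with earlier results of these data known, so no pattern is independent support. All members were named; those called against Con or NC and examples of each role are given by sample, and of other lists up to 4 genes with the largest called difference from Con. Alternatives were pseudocounts of 0.1 and 1 TPM, no filter and a filter at 1 TPM, median-ratio, quantile and mitochondria-free scaling, no trend, array weights, fits to 2 groups, a replicate block, and leaving out each sample. Median-ratio scaling without Dis sample 2 was added after seeing the data.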

Additional observations from a re-analysis of the deposited data

How the results depend on the processing

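With 3 samples in a group and depth unknown, small differences could not be resolved. Against Con, 3 members were called as reported, and 6 under median-ratio scaling, 5 under quantile normalization, 1 in the fit to the 2 groups compared, and 1 with a replicate block. Without 1 replicate in turn the number was 1 to 4. The calls over all genes tested varied as well. They were 2770 as reported, and 1184, 1192, 848 and 2091 in those settings in the same order. Without 1 replicate in turn they numbered 700 to 2897. Against NC, 3 members were called as reported, and 5 under median-ratio scaling, 1 after rescaling without the mitochondrial chromosome, 1 in the fit to 2 groups, 1 with the replicate block, and 1 to 3 without 1 replicate in turn. Over all genes tested the calls were 2676 as reported, and 1457, 1944, 1230, 2182 and 836 to 3095 in the same order. The member called under the block was Tomm40l in each comparison. No label says whether equal numbers in the titles mark 1 mouse. Deviations of same-numbered Con and Dis samples correlated at -0.02 to 0.02, which with 3 samples a group cannot settle it. The median member log2 difference, Dis versus Con, moved from -0.02 to -0.25 (median-ratio), -0.21 (quantile), -0.0946 (without the mitochondrial chromosome) and -0.0683 (array weights), and ran from -0.0687 to -0.0161 without 1 replicate in turn. That from NC moved from 0.08 to -0.16, -0.14 and 0.00171 under the same scalings and ran from 0.0206 to 0.112 without 1 replicate. Median-ratio scaling without Dis sample 2, added after seeing the data, gave 6 calls and a median of -0.23 against Con and 3 calls and a median of -0.15 against NC. Of all genes it called 1469 and 1259. Other pseudocounts and filters changed no more than 1 member call. Between Con and NC 0 members were called under every setting tried. All pair ratios kept their direction under the other pseudocounts and without any 1 sample, except Timm10 to Timm10b against NC (-0.22 to 0.17).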

Other observations

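Of the 7 tested genes of the MICOS complex, which shapes the inner-membrane folds next to the import sites, Micos10 and Chchd3 were called lower against Con and none higher, where 3.08% of all genes were called lower. Without Dis sample 2 only 1 of the 7 was called lower, beside 574 of all 16140 genes. Under median-ratio scaling 4 of the 7 were, beside 4.67% of all genes. Micos10 gave 38.6, 37.6 and 35.0 TPM in Dis, 51.1, 48.0 and 50.8 TPM in Con, and 47.6, 47.1 and 50.2 TPM in NC, a fall of 0.43 against Con in limma (adjusted p = 0.0106). Of 12 mitochondrial proteases and their partners, 3 were called higher (Trap1, Clpx and Spg7) and 1 lower (Phb), beside 14.1% and 3.08% of all genes. Under median-ratio scaling 0 were called higher in limma (adjusted p = 0.216, 0.400 and 0.569), beside 2.67% of all genes. Without Dis sample 2 the number was 2, beside 1897 of all 16140 genes. Trap1, the mitochondrial Hsp90, gave 184, 145 and 150 TPM in Dis, 106, 118 and 105 TPM in Con, and 112, 118 and 119 TPM in NC, a rise of 0.53 against Con (adjusted p = 0.0124) that was 0.30 under median-ratio scaling. Phb, a ring-forming partner of the inner-membrane proteases, fell by 0.44 (adjusted p = 0.0186) and was also called lower under median-ratio scaling.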
